A study of Mus musculus with 4 samples.

Results

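Open chromatin was examined at 10 genes of the NRF2 antioxidant response in livers of propionic acidemia (PA) and wild-type (WT) mice. The members are the genes Nfe2l2, Keap1, Gclc, Gclm, Gpx1, Txnrd1, Srxn1, Sod2, Nqo1 and Hmox1, and every peak inside them or within 50 kb of either end was taken. Peaks of the 4 libraries that overlapped or touched were merged into regions, and the 10 windows held 67 of the 38853 regions. The PA mice were Pcca-/- animals with a hypomorphic A138T form of Pcca, which encodes the alpha subunit of propionyl-CoA carboxylase, and the WT mice were of the same FVB background. There were 2 PA and 2 WT libraries, from frozen livers of female mice aged 11 weeks on standard chow, and the series calls the replicates biological. The labels do not say what drives the hypomorphic form. A single amino acid change cannot be checked from peak positions, so the genotypes rest on the labels.

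ATAC-seq uses the Tn5 transposase to cut and tag DNA that is not packed away in nucleosomes. Each library came as a list of peak positions with no height, score or read count, so a region is either called or not called in a library, and read depth is unknown. The lists held 25683 peaks in PA 1, 29765 in PA 2, 26280 in WT 1 and 25941 in WT 2. The lines were not in genome order, and the sources used here do not name what orders them. The place of a peak in its list, as a percent of the lines with 0 at the top, is therefore used as a description alone. Over the 38 regions of the windows called in all 4 libraries, places were correlated between every pair of libraries (Spearman's rho 0.951 to 0.963 across regions, which share their libraries and are not replicates). Over all 17581 regions called in every library, rho was lower, at 0.858 to 0.927. In whole liver, fewer cells with an open region and a less open region in each cell cannot be told apart. Of 7 hepatocyte marker genes, Ttr and Cps1 had a peak within 1 kb of an end in all 4 libraries, 4 had one in 1 to 3 libraries and Apoa1 in none. Alb had one in PA 1 alone. Among the 34 markers in all, which cover Kupffer, endothelial, stellate, bile duct, lymphoid and erythroid cells too, Kdr (endothelial) and Reln (stellate) were the only others with one in all 4 libraries, and 19 had none. Of the 6 Kupffer cell markers, Adgre1 had such a peak in PA 1 and PA 2 with none in WT, Cd5l in PA 2 and WT 1, Timd4 in PA 1, and Clec4f, Vsig4 and C1qa in no library. The Adgre1 region (chromosome 17, 57358393 to 57358820) was the only one at the 34 markers called in both libraries of one genotype alone, at 94.8% and 97.7% of the PA lists.

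NRF2, encoded by Nfe2l2, is a transcription factor that switches on genes against oxidants and electrophiles. In unstressed cells KEAP1 binds it and marks it for destruction, and modified KEAP1 lets it go. NRF2 then pairs with a small MAF protein on antioxidant response elements, short DNA motifs in promoters and enhancers. In liver its targets make glutathione, keep thioredoxin reduced, and remove quinones and heme.

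The upstream sequences of the starts that bear such letters were the following, read from RefSeq's promoter table (GRCm38.p6), 5′ to 3′ in the direction of the gene. Capitals mark the antioxidant response element core TGACNNNGC, or in Srxn1 the letters TGACTCA that NRF2-MAF elements share with AP-1 sites, on either strand. The sequence of Nqo1, a textbook NRF2 target, is shown beside them because, among the start regions of the 10 genes, its own had the widest gap between genotypes in list place. It holds neither motif in this stretch.
Nfe2l2 (chr2:75704664-75704913, - strand): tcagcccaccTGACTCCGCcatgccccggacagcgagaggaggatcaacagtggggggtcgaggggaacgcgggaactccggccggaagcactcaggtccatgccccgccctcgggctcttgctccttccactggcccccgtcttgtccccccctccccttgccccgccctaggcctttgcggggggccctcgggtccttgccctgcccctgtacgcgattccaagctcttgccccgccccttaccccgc
Gclm (chr3:122245307-122245556, + strand): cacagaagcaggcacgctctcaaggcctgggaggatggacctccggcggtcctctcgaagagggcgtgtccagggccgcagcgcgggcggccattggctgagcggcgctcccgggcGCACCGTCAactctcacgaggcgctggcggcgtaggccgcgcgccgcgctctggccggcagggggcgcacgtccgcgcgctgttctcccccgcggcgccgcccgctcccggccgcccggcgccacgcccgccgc
Txnrd1 (chr10:82858956-82859205, + strand): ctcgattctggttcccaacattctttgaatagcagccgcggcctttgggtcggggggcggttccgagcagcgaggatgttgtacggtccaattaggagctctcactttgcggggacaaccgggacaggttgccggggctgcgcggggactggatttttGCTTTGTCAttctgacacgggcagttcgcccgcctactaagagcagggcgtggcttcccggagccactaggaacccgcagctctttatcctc (the second of the 3 starts in the table)
Srxn1 (chr2:152105274-152105523, + strand): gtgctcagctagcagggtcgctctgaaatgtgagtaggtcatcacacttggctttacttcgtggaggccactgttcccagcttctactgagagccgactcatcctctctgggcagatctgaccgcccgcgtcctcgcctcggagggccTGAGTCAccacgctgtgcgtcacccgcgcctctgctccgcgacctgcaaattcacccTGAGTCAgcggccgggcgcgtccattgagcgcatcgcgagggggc
Nqo1 (chr8:107403206-107403455, - strand): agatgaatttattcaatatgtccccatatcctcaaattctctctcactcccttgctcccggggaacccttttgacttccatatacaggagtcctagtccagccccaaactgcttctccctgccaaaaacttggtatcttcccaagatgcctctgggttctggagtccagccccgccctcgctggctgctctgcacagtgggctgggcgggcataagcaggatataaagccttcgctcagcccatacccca

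The table matched 8 of the 10 genes with 10 starts, and Gclc and Hmox1 were not matched. Of all its promoters, read as 250 bases before to 50 after each start, 25.8% overlapped a peak in all 4 libraries. TGACNNNGC was found in the 250 bases before 3 of these 10 starts, and in 10.2% of all 32851 promoters in the table. Among the 8465 promoters with a peak in all 4 libraries the share was 12.9%. TGACTCA was found before 1 of the 10 starts, against 4.46% of all promoters and 2.63% of those with a peak in all 4 libraries. The Gclm and Txnrd1 matches lay inside the peaks of all 4 libraries, from 29.5 to 45.5 bp and from 25.5 to 38.5 bp from the peak centres. The Nfe2l2 match, at -240 to -232 bases from the start, lay outside the peak of every library. Both Srxn1 matches lay inside the peaks of PA 1, PA 2 and WT 2 and outside that of WT 1, which was centred further into the gene. GGGCGG, the GC box, which overlaps neither motif as searched here, was found on either strand before 7 of the 10 starts, against 32.7% of all promoters and 65.9% of those with a peak in all 4 libraries. A match is a description of letters and was not tested as a binding site.

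Most of the antioxidant genes carried a peak close to a gene end in both genotypes, and no region of their windows was restricted to one. A peak within 1 kb of an end was present in all 4 libraries at 8 of the 10 genes, and 41.3% of all 21631 protein-coding genes had such a call. Of the 67 regions, 38 (56.7%) were called in all 4 libraries, against 45.3% of all regions and 47.3% of regions inside or within 50 kb of any protein-coding gene. Another 7 regions were called in 3 libraries (10.45%, against 13.4% of all regions) and 3 in 2 (4.48%, against 14.5%). The remaining 19 (28.4%) were called in 1, against 26.8% of all regions. No region was PA-only, a term for a call in each PA list with none in either WT list. Of all regions 3.38% were PA-only, as were 3.24% of those within 50 kb of a protein-coding gene. WT-only regions also numbered 0 of 67, against 1.98% of all regions and 1.92% of those near genes. A count of 0 in 67 regions allows a share of up to 4.48%, so neither share was detectably different from the background. The 10 windows held 47 and 52 peaks in PA 1 and PA 2, against 52 and 47 in WT 1 and WT 2, a mean of 49.5 ± 3.54 in PA and 49.5 ± 3.54 in WT (SD, n = 2 each; exact permutation test, two-sided, p = 1, where the smallest p that 2 against 2 libraries allow is 0.333). As a share of all its peaks that was 0.179% ± 0.00587 in PA and 0.190% ± 0.0118 in WT (SD, n = 2 each, exact permutation test, two-sided, p = 0.667). Windows differed in how many regions they held, from 3 at Sod2 to 11 at Txnrd1, and the median window of all protein-coding genes held 4.

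**Figure D1:**
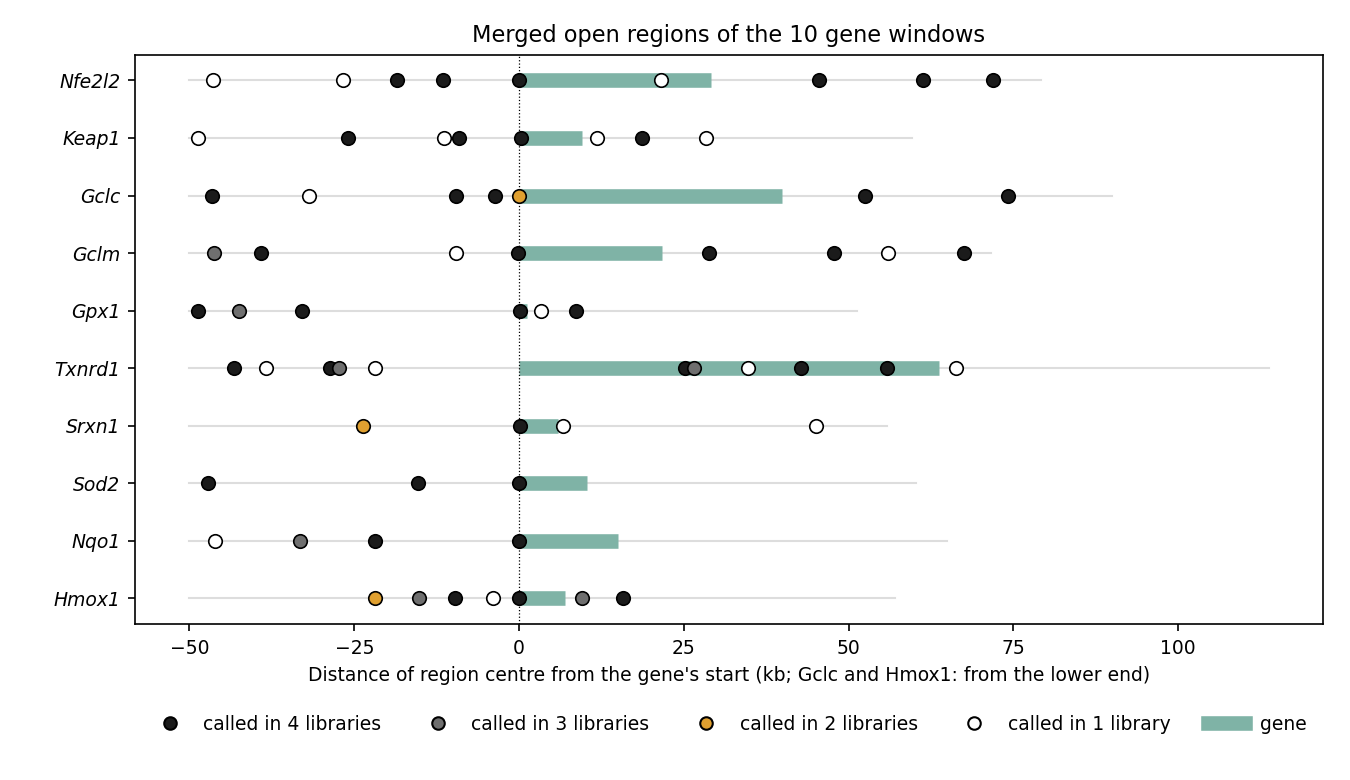
Regions of the 10 gene windows, one row per gene, by the distance in kb of the region's centre from the start of the gene, in the direction of the gene (for Gclc and Hmox1 from the end with the lower coordinate; for Txnrd1 from its first start). The fill of each point gives the number of libraries with a call, green bars are the genes and grey lines the windows. At 8 genes a region called in all 4 libraries lies at 0, at Gclc the region there was called in 2 libraries, and at Txnrd1 the called starts lie inside the gene.

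Both regulator genes had a region at the start with a peak of every library, although at Keap1 the peaks of PA 1 and WT 2 did not reach the start itself. Nfe2l2 (chromosome 2, 75675513 to 75704663, minus strand) had its start region at 75704425 to 75704825, 1.60% and 0.806% of the way down the PA 1 and PA 2 lists and 1.71% and 1.33% down the WT 1 and WT 2 lists. It stood highest in every list among the start regions of the 10 genes, and the genotypes overlapped. The 4 peak centres lay within 1 bp of each other, 37.5 to 38.5 bp inside the gene. Beyond the start, Nfe2l2 had regions called in all 4 libraries 11332 and 18221 bp outside the same end, with no protein-coding gene nearer. The first stood 62.7% and 39.7% down the PA lists and 39.4% and 40.9% down the WT lists. The second stood 54.6% and 31.7% down the PA lists and 73.0% and 50.4% down the WT lists. In both regions the genotypes overlapped and the libraries of one genotype lay far apart. A further region inside the gene (75682908 to 75683307) was called in PA 1 alone, and regions at 75731169 and 75750879 in WT 1 alone. The remaining 3 regions of the window, all called in every library, lay on the other side of the gene, one of them at an end of Hnrnpa3.

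Keap1 (chromosome 9, 21229730 to 21239332, minus strand), the gene of the protein that holds NRF2 in check, had a start region of 884 bp (21238602 to 21239485), the longest of the 67. The region stood 35.3% and 32.5% down the PA lists and 43.3% and 23.7% down the WT lists, with overlapping genotypes. Its length came from 2 peak positions. The centre lay 530.5 bp inside the gene in PA 1 and 46.5 bp in PA 2, and 114.5 bp inside in WT 1 and 489.5 bp in WT 2. Each genotype thus had 1 library at each position. Only 2041 bp from the other end of Keap1, a region at 21227290 to 21227689 was called in PA 2 alone. The other 3 regions called in every library included ones at ends of the neighbouring genes S1pr5 and Atg4d, and the window holds 5 other protein-coding genes.

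The genes of glutathione synthesis differed at their starts. Gclc and Gclm encode the catalytic and the modifier subunit of glutamate-cysteine ligase, which makes the precursor of glutathione. Gclm (chromosome 3, 122245487 to 122267215, plus strand) had a start region (122245257 to 122245672) at 6.44% and 5.46% of the PA lists and 9.15% and 4.63% of the WT lists. The centres fell before the start in the promoter table, at -100.5 to -84.5 bp, and the genotypes overlapped in place. At Gclc (chromosome 9, 77754535 to 77794489), the lower end lay in a region at 77754355 to 77754787 that was called in PA 2 and WT 2 and in neither PA 1 nor WT 1. Its peaks stood high, at 18.2% of the PA 2 list and 15.05% of the WT 2 list. The median places of the 1209 regions called in exactly these 2 libraries were 77.2% and 82.3%, and 15 of them (1.24%) stood as high in both lists as the Gclc region. The nearest peak of PA 1 lay 3341 bp away and that of WT 1 lay 3312 bp away. Both belong to a region at 77750586 to 77751043 that was called in every library, 9.98% and 15.1% down the PA lists and 18.7% and 12.75% down the WT lists. The call at the end of Gclc thus differed within each genotype. No other protein-coding gene lies in the Gclc window, where 4 more regions were called in all 4 libraries, 9289 bp and 46376 bp outside the lower end and 12275 bp and 33966 bp outside the upper end.

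Around Gclm, regions called in all 4 libraries included one 38795 bp outside the lower end of the gene (122206254 to 122206692), at 22.1% and 12.8% of the PA lists and 9.90% and 10.5% of the WT lists. Both WT libraries stood nearer the top there. At an end of the neighbouring gene Dnttip2 (122274134 to 122274566) the places were 25.55% and 28.55% in PA and 30.6% and 39.5% in WT, so that both PA libraries stood nearer the top. Gpx1 (chromosome 9, 108339080 to 108340342, plus strand) encodes glutathione peroxidase, which uses glutathione to reduce peroxides. Its start region (108338986 to 108339429) stood at 22.8% and 21.9% in PA and 22.2% and 20.4% in WT, and overlapped between genotypes. A second region 1802 bp past Gpx1 (108342144 to 108342543) was called in PA 2 alone, at 24.2%. In the same window, the region at an end of Rhoa was called in every library, at 4.33% and 3.185% in PA and 5.575% and 2.895% in WT.

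Txnrd1 encodes cytosolic thioredoxin reductase, and Srxn1 encodes sulfiredoxin, which repairs overoxidised peroxiredoxins. At Txnrd1 (chromosome 10, 82833951 to 82897724, plus strand) no library had a peak at the first start or at the far end. The calls lay at the other 2 starts in the table, inside the gene. The second start, whose upstream sequence holds TGACNNNGC, had a region at 82858880 to 82859292, at 13.6% and 14.9% in PA and 21.2% and 15.4% in WT. Both PA libraries stood nearer the top, with a mean of 14.3% ± 0.964 in PA and 18.3% ± 4.08 in WT (SD, n = 2 each), a gap no larger than the spread between the WT libraries. A region at 82860346 to 82860760 overlapped the promoter window of the third start and was called in PA 2, WT 1 and WT 2, at 31.6%, 41.2% and 26.8%. The nearest peak of PA 1 lay 1067 bp away, in the region of the second start. Further inside the gene, regions at 82876430 and 82889530 were called in every library and one at 82868457 in PA 2 alone. Places in the region at 82889530 spread from 40.4% to 63.0% in PA and from 59.7% to 82.3% in WT.

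Srxn1 (chromosome 2, 152105524 to 152111376, plus strand) had a start region at 152105302 to 152105886, at 18.96% and 25.95% in PA and 26.25% and 24.7% in WT. The genotypes overlapped. Peak centres spread over 185 bp, more than at any other start region called in all 4 libraries except that of Keap1, at 37.5 and -22.5 bp from the start in PA 1 and PA 2 and at 162.5 and 39.5 bp in WT 1 and WT 2. A region 557 bp past the far end was called in WT 1 alone, at 77.6%, a region 172 bp from an end of Scrt2 in PA 1 and WT 2, and one 1346 bp from an end of Tcf15 in PA 2 alone.

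Sod2 (chromosome 17, 13007839 to 13018119, plus strand) encodes mitochondrial superoxide dismutase, which turns superoxide into hydrogen peroxide. Its start region (13007641 to 13008046) stood at 2.445% and 4.22% in PA and 5.71% and 2.70% in WT, next to Nfe2l2 nearest the top of the lists. The centres fell 1.5 to 7.5 bp after the start in all 4 libraries, and the genotypes overlapped in place. The window held only 2 more regions, at ends of Wtap and Acat2, both called in every library. At Wtap the places were 5.89% and 9.27% in PA and 18.9% and 9.78% in WT, and at Acat2 12.1% and 10.3% in PA and 18.3% and 12.3% in WT, with both PA libraries nearer the top in each.

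Nqo1 encodes a quinone reductase and Hmox1 the heme oxygenase that breaks heme down. The start region of Nqo1 (chromosome 8, 107402965 to 107403421; gene 107388225 to 107403205, minus strand) stood lowest in every list among the start regions called in all 4 libraries, at 48.1% and 49.4% in PA and 64.6% and 62.8% in WT. Both PA libraries stood nearer the top, with a mean of 48.7% ± 0.906 in PA and 63.7% ± 1.27 in WT (SD, n = 2 each). The difference of -14.97 points, PA minus WT, exceeded the spread within either genotype. No test is given for single regions, since an exact permutation test over these libraries cannot go below p = 0.333. Of the 17581 regions called in every library, 1099 (6.25%) had PA places that did not overlap WT places and lay at least as far nearer the top. The Nqo1 region was picked as the widest such gap among the 38 regions of the windows called in every library. That share therefore does not set Nqo1 apart. Elsewhere in the Nqo1 window, the end of Nob1 was called in every library, and an end of Wwp2 in PA 1, WT 1 and WT 2.

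Hmox1 (chromosome 8, 75093618 to 75100593) had a start region at 75093360 to 75093795, at the lower end, standing at 13.95% and 10.4% in PA and 9.22% and 10.2% in WT. Here both WT libraries stood nearer the top, by 2.47 points in the mean, less than the SD of 2.51 between the PA libraries. Upstream enhancers of mouse Hmox1 with antioxidant response elements are known from other work, and whether the regions found here are those was not tested. A region 9443 bp outside the lower end (75083762 to 75084175) was called in every library, at 7.74% and 4.54% in PA and 4.92% and 7.46% in WT. That placed it nearer the top than the start region in every library. Between them, a region 3800 bp outside the lower end (75089419 to 75089818) was called in WT 1 alone, at 14.5%. Of the 10412 regions called in a single library, 70 (0.672%) stood as high, and the median place of all 10412 was 85.8%. The region was picked for its high place among the single-library regions of the windows, so that share does not set it apart. Regions at 75078232 and 75102900 were called in PA 2, WT 1 and WT 2 and not in PA 1, and one at 75071586 in PA 2 and WT 2.

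**Figure D2:**
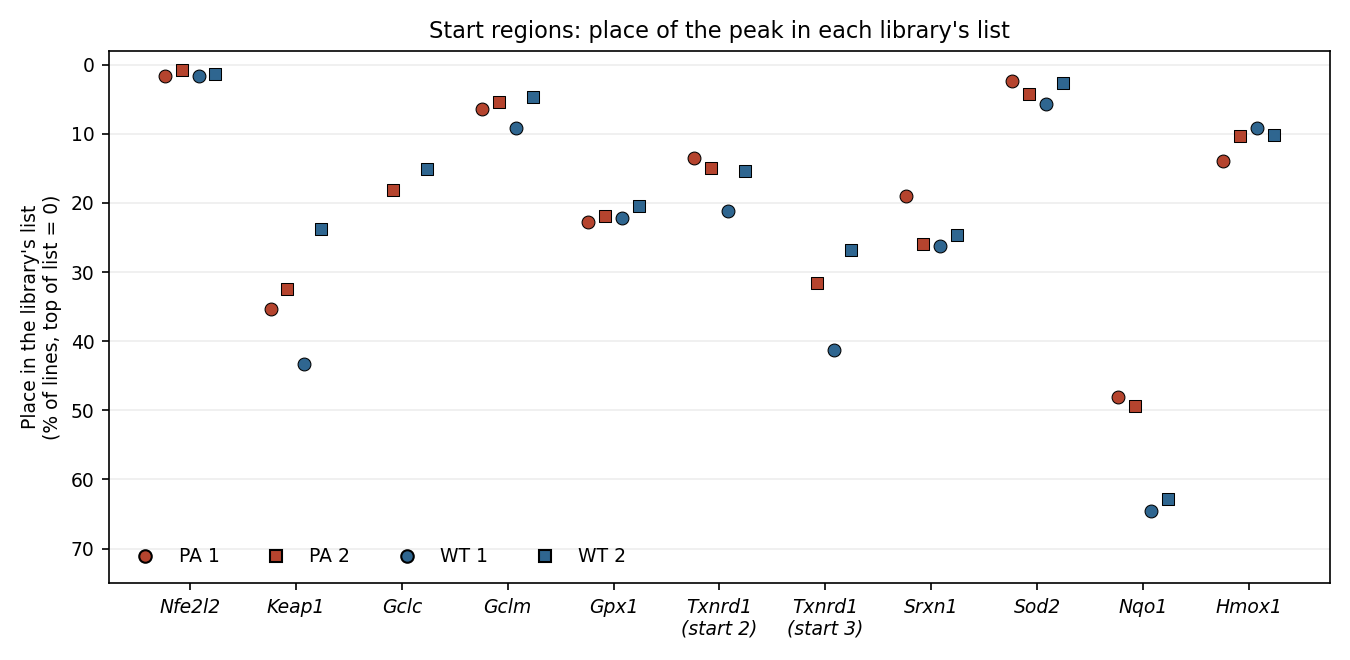
Place of the start region's peak in each library's list (vertical axis, percent of the lines, with the top of the list at the top), with PA 1 and PA 2 in red left of WT 1 and WT 2 in blue. A missing point means no call, as at Gclc in PA 1 and WT 1. Nfe2l2 and Sod2 lie nearest the top, and at Nqo1 the PA points (48.1% and 49.4%) lie above the WT points (64.6% and 62.8%).

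Places of the shared regions as a whole did not separate the genotypes. Over the 38 regions called in every library the median place was 27.4% in PA 1 and 24.85% in PA 2, against 29.4% in WT 1 and 24.5% in WT 2. The mean was 26.1% ± 1.79 in PA and 26.9% ± 3.503 in WT (SD, n = 2 each), a difference of -0.82 points, below the spread within either genotype. Over all 17581 such regions the difference was -2.60 points, and every member median lay nearer the top than that library's median over all of them, which ranged from 32.4% to 36.9%. Both PA places were nearer the top than both WT places in 8 of the 38 regions (21.1%), against 24.3% of all regions called in every library. Both WT places were nearer the top in 2 (5.26%), against 8.25%. The 8 included the start regions of Nqo1 and Txnrd1, and the 2 were the Hmox1 start and the distal Gclm region. Shares of both kinds were at or below those over all regions. The position of the peaks within a region differed by a median of 41.5 bp between libraries, and by 43.0 bp over all regions called in every library.

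**Figure D3:**
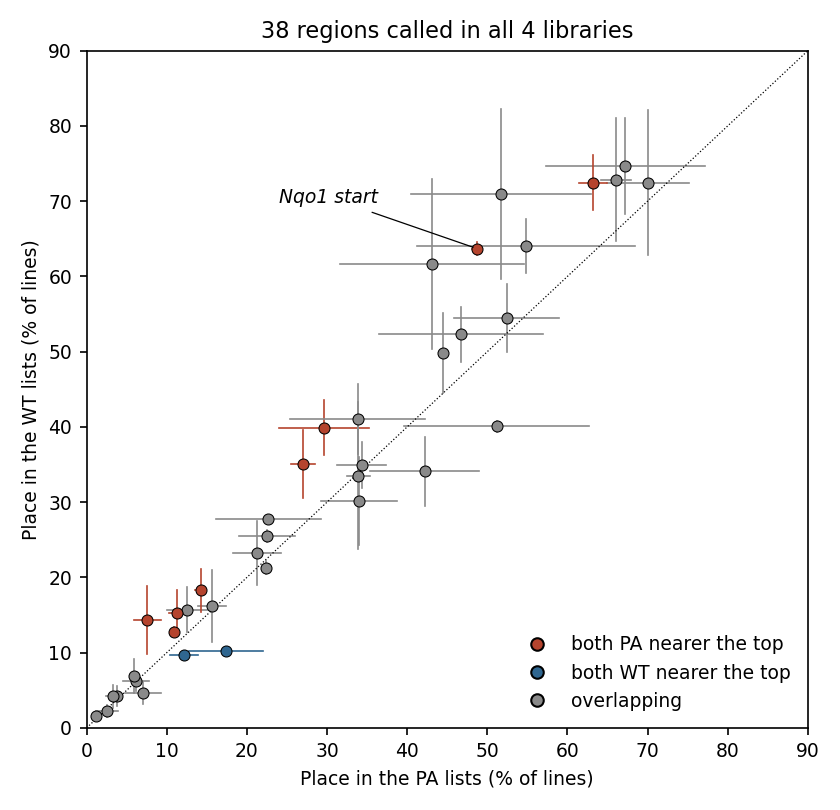
The 38 regions called in all 4 libraries by mean place in the PA lists (horizontal axis, percent of the lines) and in the WT lists (vertical axis), with lines to the values of the 2 libraries of each genotype and a dotted line of equal place. Red points (8) had both PA libraries nearer the top, blue points (2) both WT libraries, and grey points overlapped.

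Shares of partial calls lay close to those of the whole lists for PA 1 and PA 2. Of the 67 regions, 4 (5.97%) lacked only PA 1, against 5.78% of all regions, where this was also the commonest pattern of 3 libraries (2245 of 5213). PA 2, WT 1 and WT 2 were each the only library missing from 1 region (1.493% of the 67). Over all regions the share was 1.318% without PA 2 alone, 3.498% without WT 1 alone and 2.823% without WT 2 alone. These differences rest on 1 region each and were not tested. The 4 without PA 1 lay at Hmox1 and Txnrd1, with 2 at each. Of the 19 regions called in 1 library, 5 were found in PA 1 (7.46% of the 67, against 7.03% of all regions) and 6 in PA 2 (8.96%, against 9.50%). Another 8 were found in WT 1 (11.9%, against 5.90%) and 0 in WT 2 (against 4.37%, the lowest share over all regions too). Their median place was 72.6%, in the lower part of the lists, and the highest, at 13.1% of the PA 1 list, lay at an end of Kri1 in the Keap1 window. By position, 10 of the 67 regions lay at most 1 kb from a member gene's end, 8 of them called in all 4 libraries, and 6 lay inside one. Of the 51 outside, 27 were called in every library. Counted by any gene, 18 regions lay near an end of another protein-coding gene and 39 away from all such ends, of which 18 were called in every library. Shares over all regions by position are not given, so these counts are not read against a background.

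The wider NRF2 and redox list of 67 genes was also mostly open in both genotypes. It was chosen by role, with earlier results of these data known. A peak within 1 kb of an end was called in all 4 libraries at 42 genes (62.7%), against 41.3% of all protein-coding genes, in 1 to 3 libraries at 9 and in none at 16, against 48.3% of all protein-coding genes with none. The count takes peaks at either end, and they need not share a region. Cyp2a5 was counted in all 4 libraries with no region called in every library. By role, the count in all 4 libraries was 5 of 6 for NADPH supply and 5 of 6 for heme and iron. It was 6 of 8 for thioredoxin and peroxiredoxins and 3 of 4 for superoxide and peroxide. Regulators had 6 of 10, conjugation, quinone and carbonyl enzymes 9 of 15 and other glutathione genes 5 of 10. Exporters had 2 of 5 and other targets 1 of 3. The genes with no peak near an end in any library were Mafg, Maff, Slc7a11, Ggt1, Gpx2, Gpx3, Gpx4, G6pdx, Ugt1a6a, Cbr1, Aldh1a1, Fth1, Abcc4, Abcg2, Osgin1 and Trim16. Of these, Gpx4, Fth1, Ugt1a6a, Aldh1a1, Abcc4 and Abcg2 had regions called in every library inside the gene.

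Genotype-restricted regions were found inside or within 1 kb of genes of the wider list, although none was found in the 50 kb windows of the 10 genes. Only 10 regions lay near an end of the 10 genes and 6 inside one. These are too few to set the 10 genes apart from the wider list. Of its 127 regions inside or within 1 kb of a gene, 9 were PA-only (7.09%) and 2 WT-only (1.57%), against 3.03% and 1.85% of regions inside or within 1 kb of any protein-coding gene. PA-only regions overlapped an end of Nfe2l3, an NRF2 relative (chromosome 6, 51432505 to 51432935, 96.2% and 92.3% down the PA 1 and PA 2 lists), and of the glutathione transferase genes Gsta4 (chromosome 9, 78191761 to 78192181, 70.7% and 56.7%) and Gstm3 (chromosome 3, 107969056 to 107969455, 58.3% and 38.1%). The one nearest the top lay 649 bp from an end of Tkt, transketolase of the pentose phosphate pathway (chromosome 14, 30548053 to 30548482), at 34.1% and 29.9% of the PA lists. It was 458 bp from the nearest WT peak. Gsta4 and Gstm3 belong to families of similar copies, and how reads that map to several copies were handled was not stated. Another PA-only region lay inside Me1, malic enzyme (chromosome 9, 86680039 to 86680781), at 98.2% and 86.4%. It is well longer than the usual 400 bp peak, so the peaks of PA 1 and PA 2 in it need not share a position. The other 4 lay inside transporter genes, namely Abcc2 (chromosome 19, 43813276 to 43813771), Abcc3 (chromosome 11, 94347085 to 94347489), Abcc4 (chromosome 14, 118551720 to 118552126) and Abcg2 (chromosome 6, 58651030 to 58651435), at 53.7% to 85.6% of the PA lists. WT-only regions lay inside Cat, the gene of catalase (chromosome 2, 103477478 to 103477908, 53.3% and 48.8% down the WT 1 and WT 2 lists), and inside Fech, which makes heme. In 2 settings chosen after seeing the data the PA-only count was smaller. With every list held to the 25683 lines of the shortest, 7 of 125 regions were PA-only (5.6%, against 2.11% near all protein-coding genes under the same setting) and 2 WT-only (1.60%, against 2.37%). In the upper 50% of every list, 3 of 84 were PA-only (3.57%, against 2.64%) and 1 WT-only (1.19%, against 1.31%), so that the PA-only share lay near the background there. Of the regions listed above, only the one near Tkt had both its places in the upper 50%. The rest of these counts, with the WT-only region, came from regions not restricted in the whole lists, where peaks below the cut count as no call. The region at the Kupffer cell marker Adgre1 was PA-only as well, 1 of 34 regions at the marker genes, against the 3.03% above. No other marker had a PA-only region, and the part of Adgre1 in these calls was not tested. PA 2 had the longest list, and the part of list length in the PA-only count was not tested beyond the setting of equal lists. No list was tested against the background, and the wider list was chosen with earlier results of these data known.

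**Figure D4:**
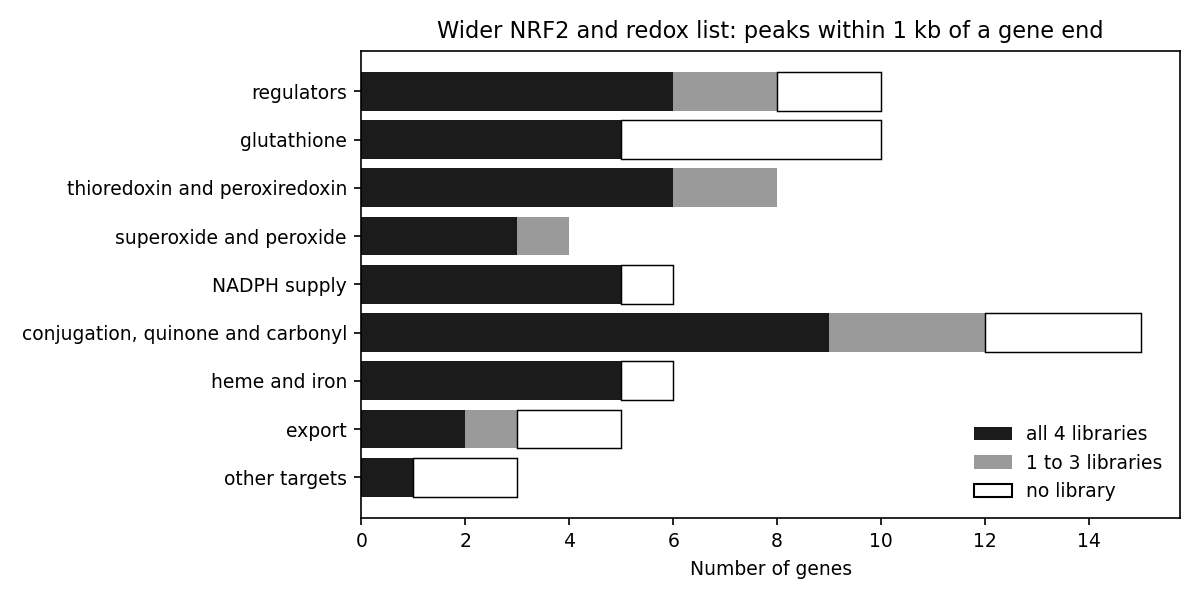
Genes of the wider list by role (number of genes on the horizontal axis), split by whether a peak lay within 1 kb of either end in all 4 libraries (black), in 1 to 3 libraries (grey) or in no library (white). Black bars make up 42 of the 67 genes, and the glutathione role is split evenly between all libraries and none.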

How the data were processed

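The authors deposited one peak list per library, with chromosome, start and end. Per the submitters' processing notes, the authors used HOMER 4.10, bedtools 2.31.0, R 4.1.2, SAMtools 1.17, Bowtie2 2.5.1 and cutadapt 3.5 with GRCm38 (mm10). The sources used here do not state the caller, its threshold, how reads were filtered or whether cut sites were shifted, each of which sets which regions are called. Apart from 3 or 4 peaks per list, all were 400 bp long. Genes came from RefSeq's GRCm38.p6 table, and only chromosomes present in the lists were used. A region was called in a library with at least 1 bp of a peak. Starts and strands came from RefSeq's promoter table, whose reading in the gene's direction was checked on 1627 overlapping opposite-strand pairs. The code (Python 3.11.15, NumPy 2.4.6, SciPy 1.17.1) was tested on simulated lists. All 10 members are named; of the wider list, genes with restricted regions or no peak near an end. The members and lists were chosen with earlier results of these data known. Alternatives covered windows, overlap, merging, list length, distance to an end and left-out libraries. Depth is unknown, so no interval is given, and limits on zero counts cover the counting of regions only.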

Additional observations from a re-analysis of the deposited data

How the results depend on the processing

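Genes with an end called in every library numbered 8 under 7 of 8 alternatives (within 500 bp or 2 kb of an end, equal lists, each library left out) and 7 in the upper 50% of every list, where Nqo1 drops out. The count of 38 regions called in every library ranged from 38 to 42 with a library left out, where the rule asks for fewer calls. It was 19 of 30 with windows of 10 kb and 56 of 103 with windows of 100 kb, which hold fewer or more regions by construction. In the upper 50% of every list it was 26 of 47. Asking a peak to cover 50% of its region gave 37, since the 884 bp Keap1 region drops out. PA-only regions numbered 1 with windows of 100 kb (98273 bp from Gpx1) and 1 among the upper 50% of each list, at the Nqo1 start, whose WT peaks stand below that point. Leaving out a library loosens the rule for its genotype by construction: PA-only counts then ranged from 1 to 6 and WT-only counts from 0 to 8. The peak number, PA minus WT, was 4.5 with windows of 100 kb, 4 in the upper 50% of the lists, and -2.5 to 2.5 with a library left out. The median place, PA minus WT, ranged from -4.50 to 1.57 points with a library left out, so its sign rests on single libraries, and as a line number, which grows with list length, it was 176. With the replicate number as a block the peak difference was 0 and the place difference -0.82, the same as without it. Replicate numbers were not shown to pair libraries (correlation of same-numbered deviations -0.125 for places and -0.00688 for calls, across regions). With the numbers crossed, an alternative added after seeing the data, the peak difference was also 0.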

Other observations

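Ends of neighbouring genes held some of the peaks of the windows nearest the top of the lists. The region at an end of Hnrnpa3, an RNA-binding protein gene beside Nfe2l2, stood at 3.87% and 1.13% of the PA lists and 3.02% and 1.42% of the WT lists. At an end of Mcm5, a replication helicase gene beside Hmox1, the places were 9.23% and 4.80% in PA and 3.20% and 6.05% in WT. Both regions were called in every library and the genotypes overlapped. Besides the one near Hmox1, 2 regions called in a single library stood far above the median of such regions, 85.8%. One, at an end of Kri1 in the Keap1 window, stood at 13.1% of the PA 1 list, where 55 of the 10412 single-library regions (0.528%) stood as high. The other, past Gpx1, stood at 24.2% of the PA 2 list, with 179 (1.72%) as high. Both were picked for their high place among the single-library regions of the windows, so these shares do not set them apart. The 250 bases upstream of the starts ranged in GC content from 42% at Gpx1 to 78.4% at Gclm, where the median over promoters with a peak in all 4 libraries was 62% and that over promoters with none was 48.4%.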
